A study of Drosophila melanogaster with 9 samples.

Results

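The genes described here are 7 members of the Jun N-terminal kinase (JNK) pathway of *Drosophila*, chosen by name from 17493 genes in the count table: *egr*, *hep*, *bsk*, *Jra*, *kay*, *puc* and *Gadd45*. All 7 passed the filter on low counts, which kept 9231 genes. They were measured by poly(A) RNA-Seq in S2-DGRC cells, an embryonic *Drosophila* line with features of hemocytes (blood cells). The cells were treated for 96 h with double-stranded RNA (dsRNA), which knocks down the gene whose sequence it carries. The 3 groups received GFP dsRNA, the control, for which the fly genome holds no matching gene, CycA dsRNA, against the cyclin that promotes entry into mitosis, or Myb dsRNA, against a transcription factor that activates mitotic genes, with 3 biological replicates each. CycA and Myb knockdown were used by the study to turn mitotic cycling cells into induced endoreplicating cells (iECs), which copy their genome repeatedly without dividing. The labels give M3+BPYE medium with 12% fetal bovine serum at one temperature for all libraries, whereas the methods of the study give a lower serum share for S2 cells than for iECs without assigning the GFP dsRNA cells to either.

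JNK is a kinase switched on by stress, wounding and tumor necrosis factor signals. In flies the ligand Eiger acts through its receptors on a chain of kinases that ends with Hemipterous, which phosphorylates the JNK Basket. Basket phosphorylates the AP-1 transcription factor made of Jun and Fos, which activates genes for cell migration, repair and death, among them *puc*, whose product removes the phosphate from Basket and so limits the signal. Phosphorylation was not measured here, and an RNA level does not give the activity of a kinase.

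The libraries held 29128930 to 44280452 counts. *CycA* RNA was 181 to 186 CPM in GFP dsRNA cells and 24.1 to 43.2 CPM in CycA dsRNA cells. *Myb* RNA was 203 to 224 CPM in GFP dsRNA cells and 12.8 to 15.1 CPM in Myb dsRNA cells, and in every knockdown library the targeted RNA was below all controls. CPM are counts per 1e6 counts of the library, scaled by TMM factors, and they measure a share of the RNA of the library, so that fewer cells of a type and less RNA per cell cannot be told apart. In one respect GFP dsRNA replicate 2 stood apart: across the 9231 genes its deviation from the mean level of its own group fell with exon length (Spearman rho = -0.52). The rho was 0.44 and 0.25 in GFP dsRNA replicates 1 and 3 and -0.18 to 0.22 in the 6 knockdown libraries. Deviations within a group cancel out, so the rho values of a group are tied to each other and do not compare the groups. Genes are not independent replicates, and this is a description.

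Of the 7 genes, *egr* was the only one called higher in CycA dsRNA cells, by 2.28-fold, and no member was called in Myb dsRNA cells. Differences under the fold threshold are given gene by gene below. Calls needed both an adjusted p under 0.05 in edgeR's quasi-likelihood test, over all 9231 genes, and a log2 fold change of 0.5 or more either way. Against GFP dsRNA, 1 of 7 members was called in CycA dsRNA cells, where 35.3% of all genes tested were called (21.2% higher and 14.1% lower). The median log2 fold change was 0.19 over the members and 0.00 over all genes. For Myb dsRNA against GFP dsRNA, 0 of 7 were called by edgeR and 0 by DESeq2, with 2 of 7 at an unadjusted p under 0.05, where 21.7% of all genes were called (14.9% higher and 6.78% lower). The median was -0.02 over the members and 0.01 over all genes. In the direct comparison of CycA dsRNA with Myb dsRNA, *egr* and *Gadd45* were called higher in CycA dsRNA cells, 2 of 7, where 30% of all genes were called (15.4% higher and 14.5% lower). Each share of members called is near or below the share of all genes, so these counts do not set the 7 genes apart. Both comparisons with GFP dsRNA use the same control libraries and are not independent. P-values come from setting the difference between groups against the spread between biological replicates, estimated from all 9 libraries.

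**Figure D1:**
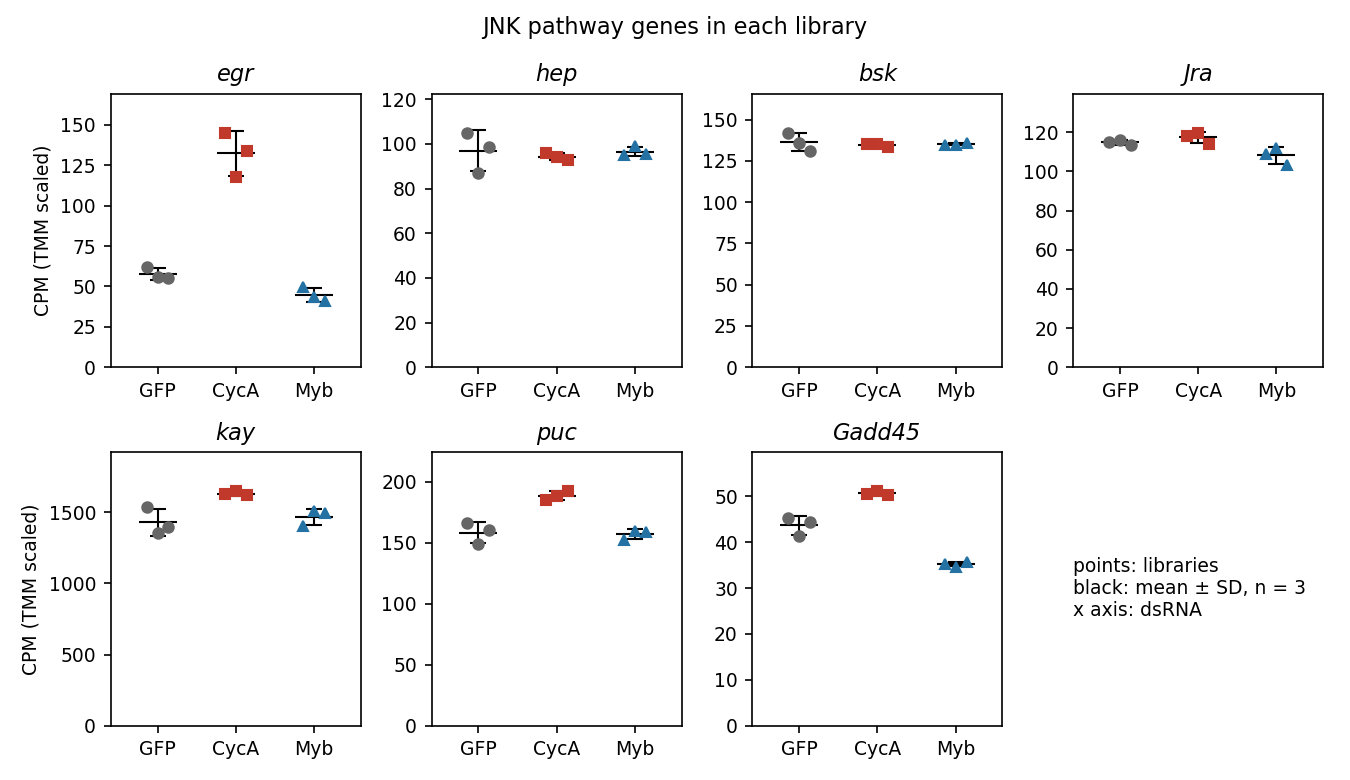
Level of each of the 7 genes in each library, in CPM scaled by TMM factors on axes that start at 0. Coloured points are libraries in replicate order from left to right, and black marks are the mean ± SD of 3. The *egr* libraries of CycA dsRNA lie between 118 and 145 CPM, above all others, and those of *Gadd45* in Myb dsRNA lie between 34.7 and 35.7 CPM, below all others.

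Among the 7 genes the ligand had the largest fold change, in CycA dsRNA cells. *egr* (2R:10078366-10084210, plus strand) encodes Eiger, the tumor necrosis factor of flies. Its level was 62.2, 55.9 and 55.4 CPM in GFP dsRNA replicates 1 to 3. It was 145, 118 and 134 CPM in CycA dsRNA and 49.7, 43.5 and 41.0 CPM in Myb dsRNA. The lowest CycA dsRNA library was above the highest control, and all Myb dsRNA libraries were below the lowest control, so the 3 groups did not overlap. *egr* rose in CycA dsRNA against GFP dsRNA with a log2 fold change of 1.19 (SE 0.0788, 95% interval 1.02 to 1.36, edgeR adjusted p = 6.51e-09). In Myb dsRNA against GFP dsRNA its log2 fold change was -0.37 (95% interval -0.55 to -0.20, edgeR adjusted p = 0.00135), which is under the fold threshold and was not called. The direct difference between the knockdowns was 2.95-fold, a log2 fold change of 1.56 (SE 0.0803, 95% interval 1.39 to 1.73, edgeR adjusted p = 4.49e-10). The RNA of the JNK ligand thus differed between the 2 kinds of iEC by more than the spread between replicates. Over the 20 other settings of the fit its log2 fold change in CycA dsRNA against GFP dsRNA lay between 1.12 and 1.26 and was called in each.

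Markers of blood cells also changed, but as a list they did not follow *egr*, whose log2 fold change in Myb dsRNA was -0.37. Of 11 hemocyte genes, 6 were called higher and 1 lower in CycA dsRNA against GFP dsRNA, and 4 were called higher and 0 lower in Myb dsRNA against GFP dsRNA. These are 54.5% higher and 9.09% lower in CycA dsRNA, where 21.2% and 14.1% of all genes were, and 36.4% higher in Myb dsRNA, where 14.9% of all genes were. Among them, the phagocytic receptor gene *eater* and the hemocyte surface gene *He*, chosen after their values were seen, went from 3.10 to 49.3 CPM and from 0.502 to 14.2 CPM between GFP dsRNA and CycA dsRNA. Their levels in Myb dsRNA were 2.25 and 0.803 CPM. The most abundant gene of the list, the growth factor receptor gene *Pvr*, fell in CycA dsRNA (-0.60), from 1081 to 713 CPM, and *srp* and *Pxn*, at -0.08 and -0.11, were not called. The summed level of the list was 1578 to 1757 CPM in GFP dsRNA libraries, 1648 to 1701 CPM in CycA dsRNA and 1556 to 1677 CPM in Myb dsRNA, and none of its genes was at 0 in a whole group. *Hml*, which defines mature hemocytes, was at 0.672 CPM in GFP dsRNA and 0.831 CPM in CycA dsRNA. Of 12 markers of neurons, muscle, germ line, fat body, glia and other cell types, 7 passed the filter and the fat body gene *Lsp2* was at 0 in all GFP and CycA dsRNA libraries, with 4 called higher in CycA dsRNA (57.1%) and 5 in Myb dsRNA (71.4%) against GFP dsRNA, where 21.2% and 14.9% of all genes were, and their summed level was 82.7 to 95.7, 103 to 109 and 101 to 106 CPM in GFP, CycA and Myb dsRNA libraries. The part of these genes in the *egr* result was not tested.

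Of the members, *hep* and *bsk* act between ligand and transcription factor, and neither was called in any comparison. *hep* (X:13079205-13090434, minus strand) encodes the kinase Hemipterous that phosphorylates JNK. Its libraries held 105, 86.9 and 98.8 CPM in GFP dsRNA, 95.7, 94.3 and 92.6 CPM in CycA dsRNA, and 95.2, 98.9 and 95.5 CPM in Myb dsRNA. The knockdown libraries lay within the range of the controls, whose lowest value is that of GFP dsRNA replicate 2. The log2 fold change was -0.04 (95% interval -0.16 to 0.08) in CycA dsRNA and -0.01 (95% interval -0.13 to 0.11) in Myb dsRNA against GFP dsRNA, with edgeR adjusted p = 0.514 and 0.922. *hep* has a total exon length of 6215 bases. With the trend on exon length removed from each library these values were -0.26 and -0.18, still under the fold threshold. The edgeR adjusted p was then 4.38e-06 and 0.000272.

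*bsk* (2L:10247502-10250501, minus strand) encodes Basket, the JNK itself. Its level was 142, 136 and 131 CPM in GFP dsRNA, 135, 135 and 134 CPM in CycA dsRNA, and 135, 135 and 136 CPM in Myb dsRNA. All knockdown libraries lay inside the range of the controls. The log2 fold change was -0.02 in each knockdown against GFP dsRNA, with a 95% interval of -0.10 to 0.07 in both and edgeR adjusted p = 0.71 in CycA dsRNA and 0.768 in Myb dsRNA. A change of *bsk* RNA past the fold threshold is outside these intervals.

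The genes of Jun and Fos were not called in any comparison. *Jra* (2R:10096480-10098556, plus strand) encodes fly Jun, and was at 115, 116 and 113 CPM in GFP dsRNA, 118, 120 and 114 CPM in CycA dsRNA, and 109, 112 and 103 CPM in Myb dsRNA. The Myb dsRNA libraries lay below all others, while those of CycA dsRNA overlapped the controls. None of its differences was called, with log2 fold changes of 0.03 (95% interval -0.06 to 0.12, edgeR adjusted p = 0.504) in CycA dsRNA against GFP dsRNA, -0.09 (edgeR adjusted p = 0.0874) in Myb dsRNA against GFP dsRNA, and 0.12 (edgeR adjusted p = 0.0208) between the knockdowns. *Jra* shares 39 exon bases, 2.38% of its exon length, with *RpLP0-like* on the opposite strand, and whether the counting used the strand is not given in the sources used here.

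*kay* (3R:29765995-29794113, plus strand) encodes fly Fos, the partner of Jun. Its libraries held 1539, 1354 and 1399 CPM in GFP dsRNA, 1626, 1650 and 1621 CPM in CycA dsRNA, and 1402, 1507 and 1495 CPM in Myb dsRNA. The CycA dsRNA libraries were above all others, and the Myb dsRNA libraries lay inside the range of the controls. The log2 fold change in CycA dsRNA against GFP dsRNA was 0.19 (95% interval 0.07 to 0.31, edgeR adjusted p = 0.00769), which was not called, and it turned to -0.09 (edgeR adjusted p = 0.0997) with the trend on exon length removed. For Myb dsRNA it was 0.04 (edgeR adjusted p = 0.601), and -0.19 with that trend removed. No direction of *kay* against the control is therefore given.

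**Figure D2:**
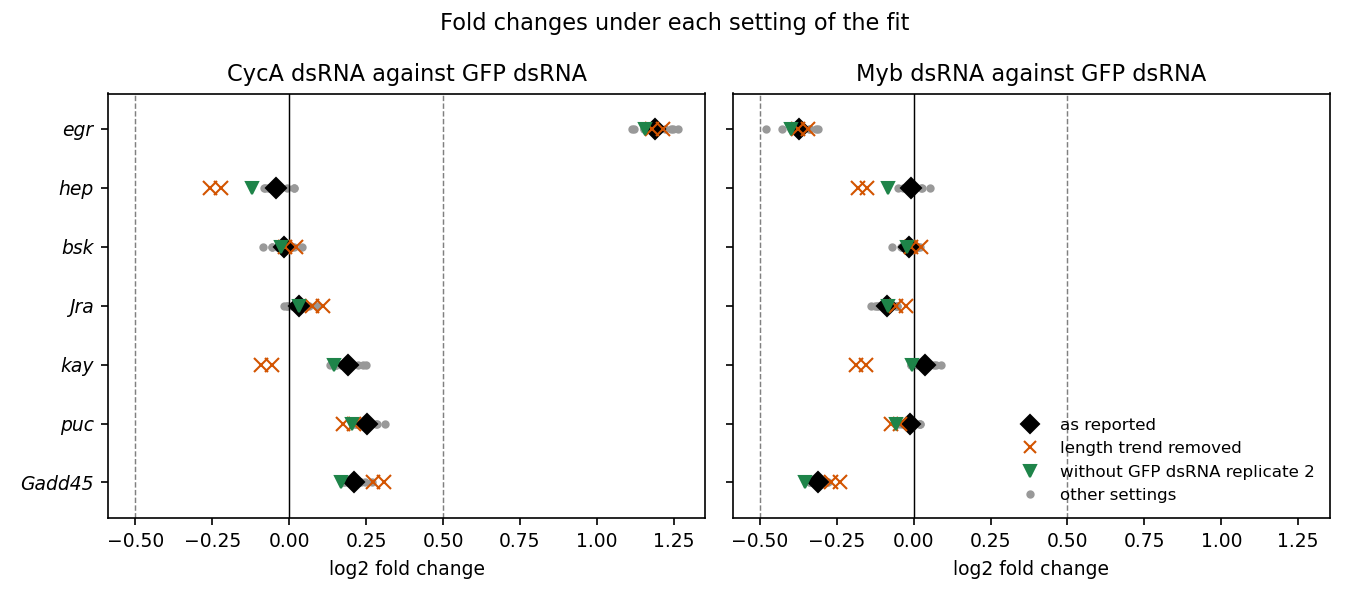
Log2 fold change of each gene in CycA dsRNA and Myb dsRNA against GFP dsRNA, as reported (diamonds) and under 20 other settings of the fit, with dashed lines at the fold threshold of 0.5. With the length trend removed (crosses) *kay* goes from 0.19 to -0.09 and *hep* from -0.04 to -0.26 in CycA dsRNA, while *egr* stays between 1.12 and 1.26 in all settings.

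The feedback phosphatase gene *puc* (3R:8105332-8122294, plus strand) is widely used as a reporter of JNK signalling. It was at 166, 149 and 160 CPM in GFP dsRNA, 185, 188 and 193 CPM in CycA dsRNA, and 152, 160 and 159 CPM in Myb dsRNA. Every CycA dsRNA library was above every control and every Myb dsRNA library, and the Myb dsRNA libraries lay inside the range of the controls. The CycA dsRNA level was 19.1% above that of GFP dsRNA, a log2 fold change of 0.25 (95% interval 0.15 to 0.35, edgeR adjusted p = 2e-04), which is under the fold threshold and was not called. The Myb dsRNA level gave a log2 fold change of -0.01 (95% interval -0.11 to 0.09, edgeR adjusted p = 0.824). Between the knockdowns the difference was 0.26 (edgeR adjusted p = 0.000144), also not called.

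*Gadd45* (2R:7249161-7250655, plus strand, a single exon) encodes a stress protein whose mammalian relatives bind kinases upstream of JNK. It was at 45.3, 41.4 and 44.5 CPM in GFP dsRNA, 50.6, 51.1 and 50.2 CPM in CycA dsRNA, and 35.3, 34.7 and 35.7 CPM in Myb dsRNA. The groups did not overlap, with CycA dsRNA above and Myb dsRNA below the controls. Against GFP dsRNA the log2 fold change was 0.21 (95% interval 0.12 to 0.31, edgeR adjusted p = 0.000609) in CycA dsRNA and -0.31 (95% interval -0.41 to -0.22, edgeR adjusted p = 4.08e-05) in Myb dsRNA, and neither was called. *Gadd45* was called in CycA dsRNA against Myb dsRNA at 0.52 (SE 0.0447, 95% interval 0.43 to 0.62, edgeR adjusted p = 1.05e-07), a value close to the threshold. A test of whether the change exceeds that threshold (glmTreat) gave an adjusted p of 0.447.

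In CycA dsRNA against GFP dsRNA, 4 of 7 members (*egr*, *kay*, *puc* and *Gadd45*) had all libraries above all controls, where 35.9% of all genes had. Likewise 3 of 7 (*egr*, *Jra* and *Gadd45*) had all Myb dsRNA libraries below all controls, where 32% of all genes had. Between the knockdowns 5 of 7 had all CycA dsRNA libraries above all Myb dsRNA libraries, where 34.5% of all genes had. With no threshold on the fold change, 4, 2 and 5 of 7 had an adjusted p under 0.05 in these comparisons by edgeR's test, where 70.7%, 57.7% and 66.3% of all genes had.

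**Figure D3:**
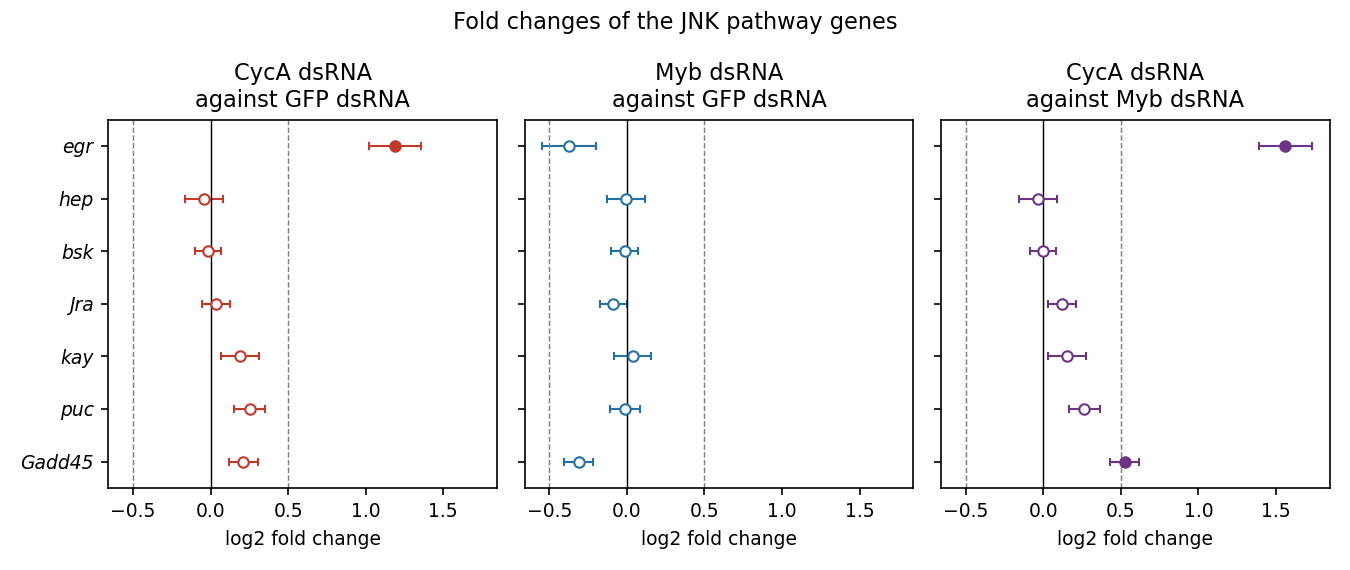
Log2 fold change of each of the 7 genes in the 3 comparisons, with 95% intervals from edgeR's quasi-likelihood fit and dashed lines at the fold threshold of 0.5. Filled points were called. They are *egr* at 1.19 in CycA dsRNA against GFP dsRNA, and *egr* at 1.56 and *Gadd45* at 0.52 in CycA dsRNA against Myb dsRNA.

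Levels can be set against each other only per exon length. In GFP dsRNA cells *kay* was the highest at 184 CPM per kb, rank 412 of the 9231 genes, followed by *Jra* at 69.9 and *bsk* at 67.6 CPM per kb, whose libraries overlapped. Below them came *puc* at 49.9, *Gadd45* at 29.2 and *egr* at 26.7 CPM per kb, the last pair overlapping, and *hep* was lowest at 15.6 CPM per kb. In CycA dsRNA cells *egr* stood at 61.1 CPM per kb, next to *bsk* at 66.8 and *puc* at 59.5 CPM per kb, and its libraries overlapped those of both. In Myb dsRNA cells *egr*, at 20.6 CPM per kb, was below *Gadd45* at 23.6 CPM per kb and above *hep* at 15.5 CPM per kb.

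**Figure D4:**
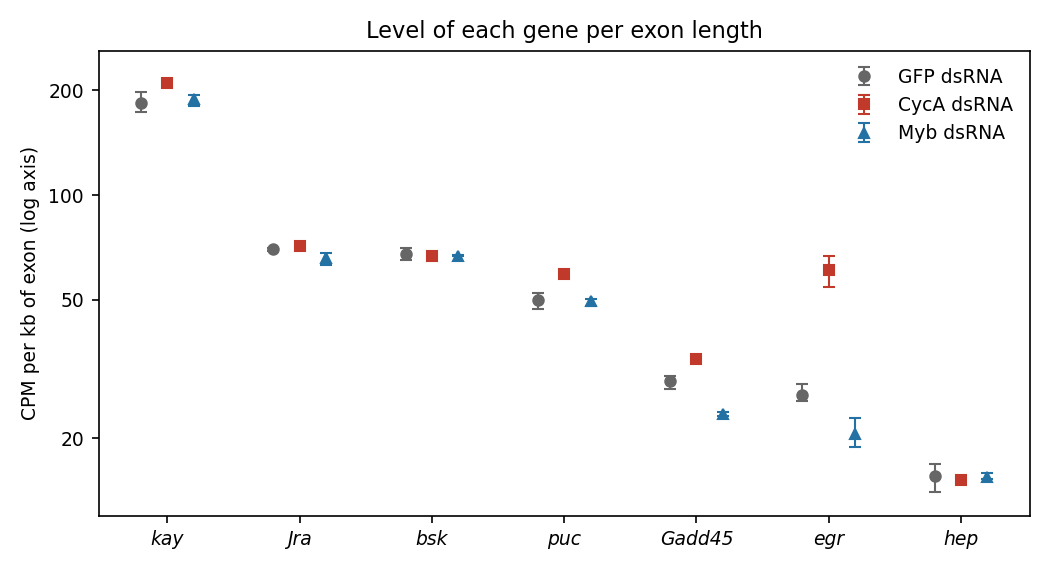
Mean level of each gene in CPM per kb of exon on a log axis, with bars from the lowest to the highest of 3 libraries in each group. *egr* lies at 26.7 in GFP dsRNA and 61.1 in CycA dsRNA, among the levels of *bsk* and *puc*.

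Among listed genes known as outputs of JNK signalling in flies, most were higher in CycA dsRNA cells. The list held 20 genes and was written with earlier results of these data known, so its counts are a description. It left out *puc*, an output described above as a member. Against GFP dsRNA *puc* was at 0.25 in CycA dsRNA and -0.01 in Myb dsRNA and was not called. In CycA dsRNA against GFP dsRNA, 14 of the 17 tested were called higher and 0 lower, by edgeR and also by DESeq2, where 21.2% of all genes were called higher. The median log2 fold change was 1.05 over the list and 0.00 over all genes. Myb dsRNA gave 8 outputs called higher and 2 lower against GFP dsRNA, 47.1% and 11.8% of those tested, where 14.9% and 6.78% of all genes were, with a median of 0.36. Between the knockdowns, 10 were called higher in CycA dsRNA and 2 lower, 58.8% and 11.8%, where 15.4% and 14.5% of all genes were, with a median of 0.56. The outputs *upd1*, *Ilp8* and *l(2)efl* had too few counts to test.

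Secreted signals came first among the outputs. *upd2* (X:18240654-18243284, minus strand), a ligand of the JAK/STAT pathway, was at 3.60 to 4.27 CPM in GFP dsRNA, 12.6 to 15.2 CPM in CycA dsRNA and 3.48 to 3.79 CPM in Myb dsRNA. It rose in CycA dsRNA against GFP dsRNA by a log2 fold change of 1.83 (SE 0.0922, edgeR adjusted p = 3.49e-10), and gave -0.10 (95% interval -0.33 to 0.14) in Myb dsRNA. Its relative *upd3* rose by 1.20 in CycA dsRNA and gave 0.03 in Myb dsRNA, and the CycA dsRNA libraries of both genes were above all others. The 13 outputs other than *upd2*, *Mmp1*, *hid* and *NLaz* are named because the whole list is spelled out, not by their size. *Pvf1*, a growth factor of the PDGF and VEGF family, rose by 1.79 in CycA dsRNA and 1.17 in Myb dsRNA, and the morphogen gene *dpp* rose by 0.97 and 1.57, both at under 2 CPM in every library. The *dpp* libraries of CycA dsRNA, at 0.356 to 0.864 CPM, overlapped those of GFP dsRNA, at 0.247 to 0.433 CPM. In CycA dsRNA against Myb dsRNA, *upd2*, *upd3* and *Pvf1* were called higher (1.93, 1.17 and 0.62) and *dpp* lower (-0.61).

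Outputs that remodel the matrix and the cell's shape followed. *Mmp1* (2R:24671294-24688184, minus strand), a matrix metalloproteinase, was at 32.0 to 34.6 CPM in GFP dsRNA, 107 to 114 CPM in CycA dsRNA and 41.4 to 44.1 CPM in Myb dsRNA, with no overlap of the groups. It rose by a log2 fold change of 1.75 (SE 0.0479, edgeR adjusted p = 6.82e-13) in CycA dsRNA and gave 0.36 in Myb dsRNA, under the threshold. *Mmp1* shares 284 exon bases, 5.87% of its exon length, with *Pof*. *Mmp2*, the other fly metalloproteinase, rose by 0.62 in CycA dsRNA and fell in Myb dsRNA (-0.66). *scaf*, *Zasp52* and *Sulf1* rose in both knockdowns, by 1.19, 1.15 and 1.05 in CycA dsRNA and 0.59, 0.85 and 0.77 in Myb dsRNA, whereas the filamin gene *cher* rose by 0.68 in CycA dsRNA and gave -0.06 in Myb dsRNA.

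The pro-apoptotic pair *hid* and *rpr* behaved differently. *hid* (3L:18167745-18185641, minus strand) was at 4.62 to 5.44 CPM in GFP dsRNA, 12.0 to 13.2 CPM in CycA dsRNA and 10.6 to 11.2 CPM in Myb dsRNA. It rose in both, by a log2 fold change of 1.30 (SE 0.0779, edgeR adjusted p = 2.28e-09) in CycA dsRNA and 1.09 (SE 0.0786, edgeR adjusted p = 5.35e-08) in Myb dsRNA. *rpr* rose by 0.54 in CycA dsRNA and gave -0.02 (95% interval -0.13 to 0.09) in Myb dsRNA. The difference between the knockdowns was called for *rpr*, at 0.56, and not for *hid*, at 0.21.

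Among stress and metabolic outputs, *NLaz* (2L:1359837-1361821, minus strand), a lipocalin, was at 0.515 to 0.693 CPM in GFP dsRNA, 1.35 to 2.10 CPM in CycA dsRNA and 4.93 to 5.09 CPM in Myb dsRNA. It rose by a log2 fold change of 1.47 (SE 0.216, edgeR adjusted p = 2.6e-05) in CycA dsRNA and 3.08 (SE 0.172, edgeR adjusted p = 3.45e-09) in Myb dsRNA, and its level in Myb dsRNA was above that in CycA dsRNA (CycA against Myb dsRNA -1.61). The detoxifying enzyme gene *GstD1* rose by 0.76 in CycA dsRNA and gave 0.22 in Myb dsRNA. The heat shock gene *Hsp68* gave -0.12 in CycA dsRNA and fell in Myb dsRNA (-0.91). *Thor*, a translation inhibitor, gave 0.16 and -0.23 and was not called, and *mol*, at under 1 CPM in every library, gave 0.33 in CycA dsRNA and rose by 0.82 in Myb dsRNA.

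**Figure D5:**
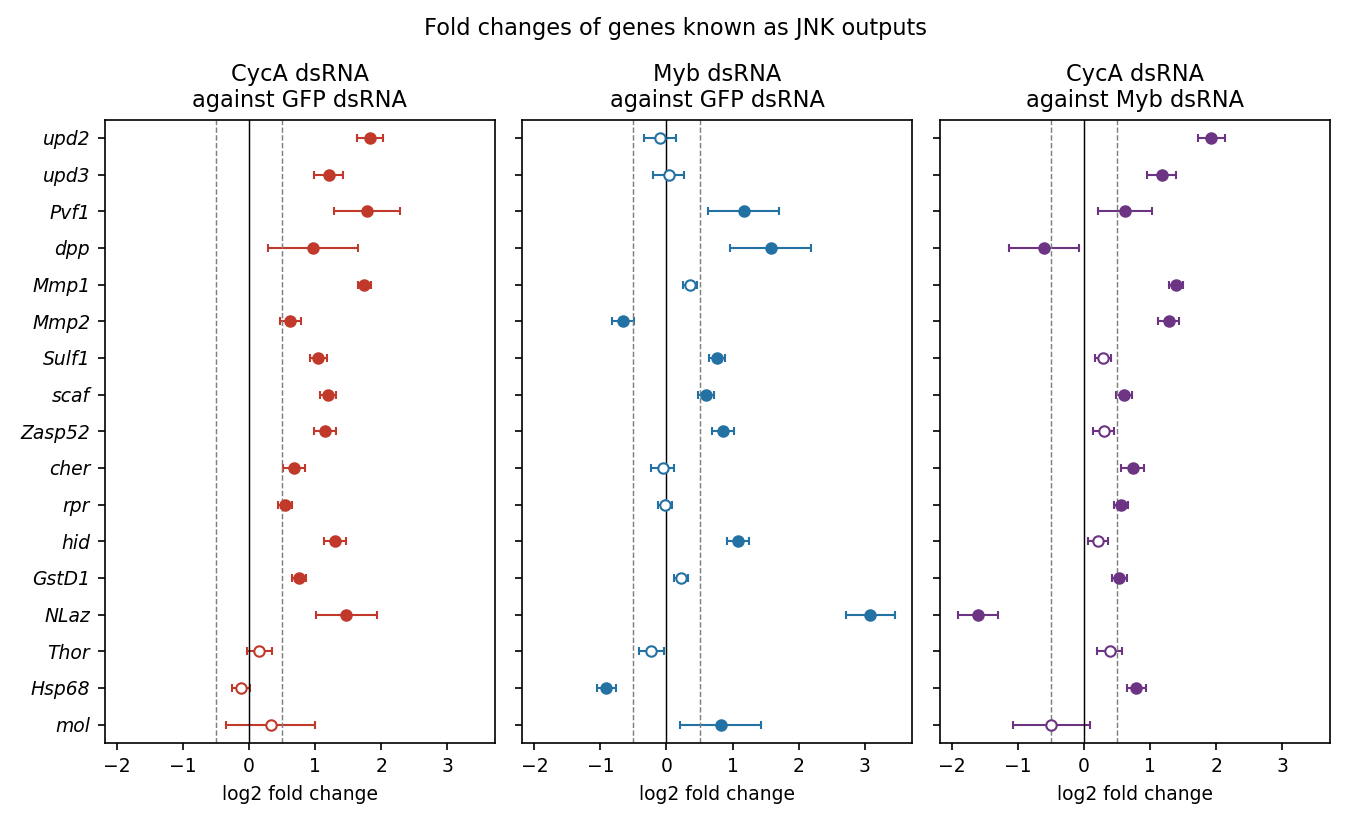
Log2 fold change with 95% interval of the 17 tested outputs of JNK signalling in the 3 comparisons, with dashed lines at the fold threshold of 0.5 and filled points for called genes. In CycA dsRNA against GFP dsRNA 14 points are filled, all to the right, and in Myb dsRNA against GFP dsRNA 8 are filled to the right and 2 (*Mmp2* at -0.66 and *Hsp68* at -0.91) to the left.

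Most regulators upstream of JNK were not called. Of 25 receptors, adaptors and kinases, 24 were tested (*Takl1* had too few counts), and 3 were called higher and 0 lower in CycA dsRNA against GFP dsRNA, 12.5% higher where 21.2% of all genes were, with a list median of 0.15. Without GFP dsRNA replicate 2 or 3, or Myb dsRNA replicate 1 or 2, 1 was called lower. *msn* (3L:2554847-2586540, minus strand), a kinase that acts above Hemipterous, was at 606 to 748 CPM in GFP dsRNA and 1020 to 1099 CPM in CycA dsRNA and rose by a log2 fold change of 0.63 (SE 0.0664, edgeR adjusted p = 9.05e-07). *Src64B* (3L:4592447-4626196, minus strand), a Src kinase, rose by 0.59 (SE 0.0511, edgeR adjusted p = 1.2e-07). With the trend on exon length removed, *msn* gave 0.39 and *Src64B* 0.42, and neither was called. The third gene, the Eiger receptor gene *grnd*, was chosen after its values were seen and rose by 0.92 in CycA dsRNA and 1.10 in Myb dsRNA (edgeR adjusted p = 0.0119 and 0.00334), on 6 to 10 counts in each control library. The gene of the other Eiger receptor, *wgn*, was at 94.0 CPM in GFP dsRNA and 105 CPM in CycA dsRNA and was not called (0.16). In Myb dsRNA against GFP dsRNA, *grnd* and the JNK scaffold gene *Aplip1* made up the 2 called higher, 8.33% where 14.9% of all genes were, and 0 were lower. Without GFP dsRNA replicate 1 that count was 4.

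Of 12 nuclear factors that work with AP-1 or near it, 1 was called higher in each knockdown against GFP dsRNA and 0 lower, 8.33% higher where 21.2% of all genes were in CycA dsRNA and 14.9% in Myb dsRNA. In CycA dsRNA it was *CrebA* (3L:15535395-15553214, plus strand), a factor of secretory cells, at a log2 fold change of 0.51 (SE 0.0682, edgeR adjusted p = 9.7e-06). Its call was lost in 10 of 20 other settings, among them leaving out GFP dsRNA replicate 2 (0.42), GFP dsRNA replicate 3, CycA dsRNA replicate 3 or Myb dsRNA replicate 1 or 2, and removing the trend on exon length (0.38). In Myb dsRNA it was *slbo*, a C/EBP factor named after its value was seen, at 0.56 on a mean level of 0.893 CPM in GFP dsRNA and 1.32 CPM in Myb dsRNA. Without GFP dsRNA replicate 2 or without Myb dsRNA replicate 3, 0 nuclear factors were called higher in Myb dsRNA by edgeR, as with a minimum count of 50 or with glmTreat.

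In the parallel MAP kinase branches (ERK and p38) 10 of 11 genes were tested, *Mkp* having too few counts. In CycA dsRNA against GFP dsRNA the ERK gene *rl* (2R:1071462-1125927, plus strand) rose by a log2 fold change of 0.61 (SE 0.0549, edgeR adjusted p = 1.52e-07) and no other gene was called, and *rl* gave 0.34, uncalled, with the trend on exon length removed. In Myb dsRNA against GFP dsRNA *p38c* (3R:24149020-24150203, minus strand) went from 5.84 to 6.90 CPM in the controls to 2.42 to 3.05 CPM and fell by 1.25 on the log2 scale (SE 0.111, edgeR adjusted p = 4.22e-07). Its CycA dsRNA libraries, at 6.25 to 7.33 CPM, overlapped the controls.

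The genes whose pattern over the 9 libraries was most like that of a called member were found by the root mean square difference of log2 CPM, each gene centred on its own mean. For *egr* these were *CG13117* (0.0903), the tubulin gene *betaTub97EF* (0.0914) and the Toll receptor gene *Tl* (0.0951), where the median over all genes was 0.723. *CG13117* averaged 165, 393 and 135 CPM in GFP, CycA and Myb dsRNA. For *Gadd45* they were the lipid phosphatase gene *Lpin* (0.0286), *tacc* (0.0380), whose product acts on centrosomal microtubules, and *Hmt-1* (0.0494), where the median was 0.336. *Lpin* averaged 258, 298 and 214 CPM in the same order. It shares 600 exon bases, 10.9% of its exon length, with *kermit* on the same strand.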

How the data were processed

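Per the labels, RNA from 3 biological replicates of each dsRNA treatment was sequenced. The authors checked reads with FastQC 0.11.5, aligned them with STAR 2.6.1a to Release 6 of the fly genome and assigned them to exons with featureCounts, and the deposited table holds raw read counts of 17493 genes with exon lengths. The authors' fold changes and p-values from DESeq2 1.14.1, deposited beside it, were not used. Symbols stored as dates (5 genes) were restored by gene ID.

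Counts were fitted with edgeR 4.0.16 in R 4.3.3 (filterByExpr with a minimum count of 10, TMM, 1 quasi-likelihood model of 9 libraries and 3 comparisons), with Benjamini-Hochberg adjustment over 9231 genes. DESeq2 1.42.0, other scalings, filters and thresholds, each library left out, a replicate block and removal of a lowess trend on exon length were the alternatives. The fit was tested on simulated data for CycA against GFP dsRNA only. Those data held no trend on exon length. Positions are from the BDGP6.54 annotation, whose exon length agreed for 98.9% of the genes matched by ID. Promoter motifs were not analysed.

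Members and gene lists were chosen with earlier results of these data known. Named genes were the 7 members, *CycA*, *Myb*, up to 4 called genes per list with the largest changes against GFP dsRNA and a mean of at least 50 counts, and the 3 genes most like each called member. Others, among them the cell type markers, *wgn* and *Aplip1*, were named outside this rule, some after their values were seen.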

Additional observations from a re-analysis of the deposited data

How the results depend on the processing

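No member reversed a call under 20 alternatives, and neither did the list genes named for their changes and mean counts. *CycA*, *Myb*, the genes most like a called member and the genes named outside the rule were not followed gene by gene. With no threshold on the fold change, 4, 2 and 5 members were called in CycA against GFP, Myb against GFP and CycA against Myb dsRNA. Against GFP dsRNA, *puc* at 0.25, *kay* at 0.19 and *Gadd45* at 0.21 were then also called in CycA dsRNA. As *kay* turned to -0.09 (edgeR adjusted p = 0.0997) with the trend on exon length removed, no direction is given for it. *Gadd45* at -0.31 and *egr* at -0.37 were then called in Myb dsRNA. A test against the threshold itself (glmTreat) left 1 member called in CycA against Myb dsRNA, *Gadd45* at 0.52 losing its call. For the JNK outputs it gave 1 lower in Myb against GFP dsRNA, and 6 higher and 1 lower in CycA against Myb dsRNA. A minimum count of 50 gave 5 higher outputs in Myb against GFP dsRNA and, like DESeq2, 1 lower in CycA against Myb dsRNA. Leaving out each library in turn gave 1 to 3 lower outputs there, with 3 without CycA dsRNA replicate 2 and 1 without CycA dsRNA replicate 1 or 3 or any 1 Myb dsRNA replicate, and *egr* at 1.12 to 1.26, -0.48 to -0.31 and 1.49 to 1.64 in the 3 comparisons. *Gadd45* was then at 0.50 to 0.53 in CycA against Myb dsRNA.

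Over all genes, the counts called higher and lower were 1954 and 1301 in CycA against GFP, 1379 and 626 in Myb against GFP, and 1426 and 1339 in CycA against Myb dsRNA. With no fold threshold they were 3208 and 3322, 2646 and 2683, and 2904 and 3219. With glmTreat 850 were lower in CycA against GFP, 874 higher and 307 lower in Myb against GFP, and 856 lower in CycA against Myb dsRNA, and a minimum count of 50 gave 785 higher in Myb against GFP dsRNA. The causes were not tested.

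Replicate numbers, taken from the sample titles, were shared by the groups, although the read files of CycA and Myb dsRNA replicate 3 carry the number 4. Deviations of same-numbered libraries correlated at -0.0465 to 0.0969, with 11 of 18 best matched to their own number. Libraries of different groups and numbers correlated at -0.0880 to 0.0365. A fit with the replicate number as a block called 1, 0 and 2 members and 14, 8 and 10 outputs higher in the 3 comparisons, as did the fit without it. Depth did not limit the members, the lowest of which, *Gadd45*, had at least 1063 counts per library.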
